A study of Homo sapiens with 23 samples.

Results

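Clone I4 is a single clone of PC-3 cells, an established human cell line from a bone metastasis of prostate cancer, and it carries a lentiviral construct with PARG cDNA and a cleavable mClover3 tag behind a TetOne promoter that doxycycline switches on. The account below concerns 1 experiment on this clone, called N in the labels and done at passage 5. It compares cells grown for 72 h with 500 ng/ml doxycycline (labelled PARG overexpression) with cells grown for 72 h without it (labelled control). The members are the 6 libraries of these groups, 3 with and 3 without doxycycline, out of 23 libraries in the study; the rest come from the same clone in experiment B (passage 7) and from a second clone, H6. Genes were taken from the authors' deposited table where the higher of the group means was at least 1 RPKM (reads per kilobase of exon, scaled to library size), which kept 10761 of 21463 rows. Both groups carry the construct, and cells without it were not analysed here, so an effect of doxycycline itself and one of induced PARG cannot be told apart. Each library came from its own well of 1 clone, so the authors' q-values rest on wells of a single clone and carry no spread between clones.

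PARG cuts the poly(ADP-ribose) chains that PARP1 and related enzymes build from NAD on proteins, above all at sites of DNA damage and active chromatin. NF-kB is a family of transcription factors held inactive by inhibitor proteins; once freed, it switches on genes of chemokines and cytokines together with its own inhibitors. PC-3 cells are known for high NF-kB activity and for secreting interleukins and chemokines without outside stimulation.

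The deposited table holds for each gene the higher group mean, a signed fold and a q-value, and no value of a single library, so no SD is given and the q-value is the authors' own. The level without and with doxycycline was computed here from the mean and the fold. Low genes showed the value of a single read, which put the 6 libraries at 34.9 to 39.7 M reads. At the level of the higher group, a gene of at least 1 RPKM had a median of about 1762 reads per library. Counting error at that level was small for most genes described. All 14 markers of PC-3 and prostate epithelium have a row and 8 reached 1 RPKM, led by KRT18, while KLK3, the gene of prostate-specific antigen, stayed under 1 RPKM. The summed level of 8 leukocyte markers was 18.1 RPKM without and 16.6 RPKM with doxycycline, nearly all of it CD68, and 3 of the 8 were at 0. The 14 epithelial markers summed to 196 RPKM without and 255 RPKM with doxycycline, and 8 neuroendocrine markers to 24.1 and 33.9 RPKM, nearly all of it ENO2, with 3 of the 8 at 0. Of 8 endothelial and 8 fibroblast markers, 1 each reached 1 RPKM, KDR and COL1A1, and the sums of these lists were 2.32 and 2.05 RPKM and 10.8 and 10.8 RPKM without and with doxycycline. In RNA from whole wells, fewer cells of a kind and less RNA per cell cannot be told apart.

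PARG rose from 21.6 to 29.3 RPKM by the authors' deposited table, 1.35-fold, q = 9.06e-09. Which group a positive fold favours is not written in the table and was read from PARG, so the direction of PARG is not a result and all other directions rest on it. PARG spans 49818279 to 49970203 of chromosome 10 (GRCh38, minus strand), has an overlapping gene on the other strand and a pseudogene copy, and its own and introduced transcripts were not separated. Its main counterpart PARP1, the enzyme that writes most poly(ADP-ribose), fell from 171 to 124 RPKM by the authors' deposited table, 1.38-fold, q = 9.87e-05. Of 24 measured writers, readers and erasers of ADP-ribose 4 were called higher and 2 lower (16.7% and 8.33%), against 10.3% and 12.5% of all genes measured. In the authors' deposited table PARP16, PARP4 and ADPRHL2 were 1.28-fold, 1.20-fold and 1.17-fold higher and PARP10 1.24-fold lower. Of 15 genes of NAD synthesis and use, NMNAT2 was called higher and SIRT1 lower.

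A gene was called where the authors' q-value was under 0.05. Of the 10761 genes, 2460 were called (22.9%), 1110 higher and 1350 lower. Most changes were small, with a median of 1.27-fold among genes called higher and 1.25-fold among those called lower. The tails were unequal. At 2-fold or more there were 30 rises and 80 falls, at 3-fold or more 2 rises and 32 falls, and at 5-fold or more 1 rise and 15 falls. The smallest fold called was 1.14 in either direction, and the median log2 fold of all 10761 genes was -0.01. Genes called lower summed to 55977 RPKM without and 40726 RPKM with doxycycline, and genes called higher to 25846 and 33467 RPKM. The 12 mitochondrially encoded transcripts among the genes called lower summed to 14552 RPKM without and 9584 RPKM with doxycycline. Counts of list members are set against the shares over all genes, 10.3% higher and 12.5% lower.

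**Figure D1:**
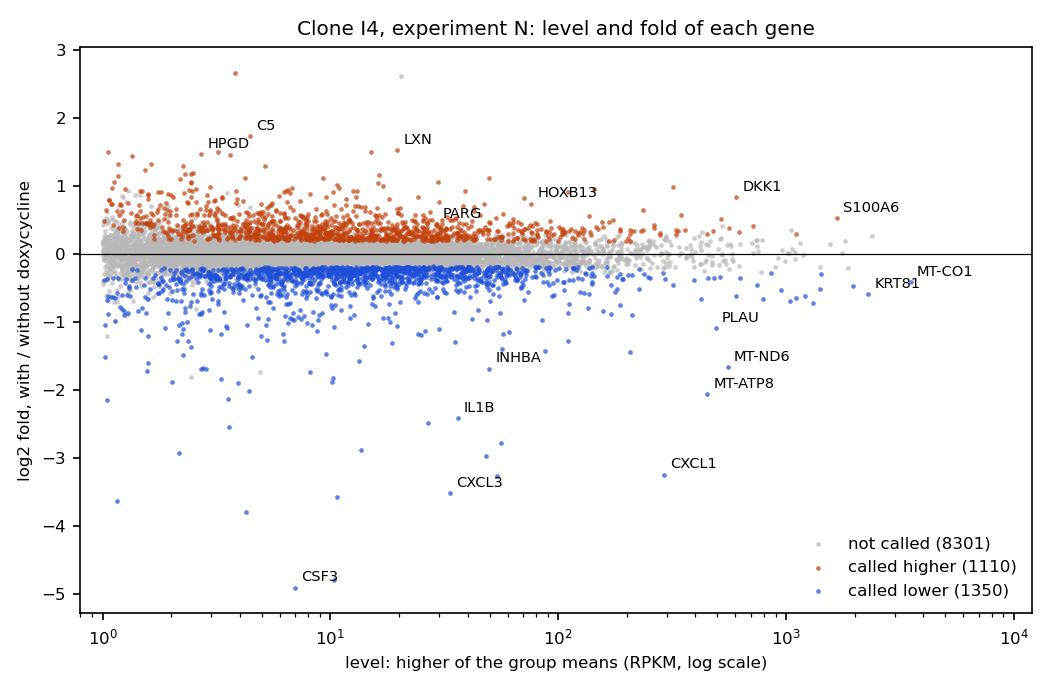
Each point is 1 of the 10761 genes of at least 1 RPKM, placed by the higher of its group means (RPKM, log axis) and its log2 fold with against without doxycycline; red and blue points are the 1110 genes called higher and the 1350 called lower. The falls reach a log2 fold of -4.90 at CSF3, while C5, the largest rise of a gene with a symbol, reaches 1.73.

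Among the steepest falls were those of CXC chemokines, small secreted proteins that draw neutrophils through the receptors CXCR1 and CXCR2. Their promoters are shown because 6 genes of this family, all within one stretch of chromosome 4, fell together, and because a long match to the kB consensus, the DNA sequence bound by NF-kB, stands at nearly the same place in 5 of them. The 130 bases before the RefSeq start (GRCh38.p14, strand of the gene, 5′ to 3′) are given for CXCL1 (chr4:73869263-73869392, plus strand), CXCL2 (chr4:74099196-74099325, minus), CXCL3 (chr4:74038690-74038819, minus), CXCL5 (chr4:73998678-73998807, minus), CXCL6 (chr4:73836548-73836677, plus) and CXCL8 (chr4:73740439-73740568, plus). TNFAIP3, an NF-kB inhibitor gene outside the family, is added (chr6:137867129-137867258, plus). Capitals mark matches to the kB consensus on either strand.
CXCL1: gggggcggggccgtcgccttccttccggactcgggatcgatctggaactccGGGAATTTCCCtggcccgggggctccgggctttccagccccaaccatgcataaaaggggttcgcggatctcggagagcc
CXCL2: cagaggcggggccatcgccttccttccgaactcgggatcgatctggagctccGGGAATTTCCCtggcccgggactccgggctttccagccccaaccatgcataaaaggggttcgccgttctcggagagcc
CXCL3: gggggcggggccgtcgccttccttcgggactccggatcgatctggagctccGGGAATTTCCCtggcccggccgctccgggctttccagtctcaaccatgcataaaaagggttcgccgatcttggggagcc
CXCL5: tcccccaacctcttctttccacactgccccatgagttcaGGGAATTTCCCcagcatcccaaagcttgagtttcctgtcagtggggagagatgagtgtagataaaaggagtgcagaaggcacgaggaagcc
CXCL6: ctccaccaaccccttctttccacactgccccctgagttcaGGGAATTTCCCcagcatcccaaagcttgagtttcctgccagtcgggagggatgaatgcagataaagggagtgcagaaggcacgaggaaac
CXCL8: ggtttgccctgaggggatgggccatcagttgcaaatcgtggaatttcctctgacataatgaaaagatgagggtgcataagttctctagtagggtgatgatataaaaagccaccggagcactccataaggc
TNFAIP3: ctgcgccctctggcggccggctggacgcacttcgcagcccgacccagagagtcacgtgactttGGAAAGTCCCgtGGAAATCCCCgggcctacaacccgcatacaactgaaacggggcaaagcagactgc

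The same 11 bases, GGGAATTTCCC, stand in 5 of the 6 chemokine windows, first met between 78 and 91 bases before the start, and in 15 of all 35116 RefSeq windows (0.0427%). The 15 include these 5 windows. The run was picked as the most frequent marked one in the chemokine windows, so its share over all windows is a description only. CXCL1 and CXCL3 share 119 of 130 bases in the chemokine windows. CXCL8 holds no exact match to these consensus letters, though the letters tggaatttcc in its window miss the kB consensus at the first base only. It has TATAAA 31 bases and a match to the AP-1 motif 137 bases before its start. Over the 250 bases before the start, a kB match on either strand was found in 9 of the 15 windows matched among the 20 largest falls, in 2 of 17 among the 20 largest rises, in 5.92% of 8946 windows of genes of at least 1 RPKM and in 5.21% of all 35116. The 9 include the 5 chemokine windows, which are not independent. Among all matched genes called lower the share was 7.81% of 1089 windows and among those called higher 6.04% of 927, so beyond the largest falls the shares lay close to the background. The AP-1 motif TGANTCA was found in 2 of the 15 and 1 of the 17, against 3.55% of measured genes and 6.57% of all windows. The TATA box letters TATAAA were found in 4 and 2, against 4.86% and 10.7%, and the cAMP response element TGACGTCA in none, against 3.1% and 1.65%. The 4 motifs were searched separately, so matches to different motifs may overlap, and a match is a description of sequence, not of binding.

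CXCL1 was the most abundant of the family and fell from 292 to 30.9 RPKM by the authors' deposited table, 9.47-fold, q listed as 0. CXCL6 fell from 55.8 to 8.16 RPKM, 6.84-fold, q listed as 0, and CXCL5 from 53.7 to 5.58 RPKM, 9.63-fold, q listed as 0, by the authors' deposited table. CXCL5 is known to be made by epithelial cells. CXCL8, which encodes interleukin-8, fell from 48.1 to 6.17 RPKM, 7.80-fold, q listed as 0, by the authors' deposited table. CXCL3 fell from 33.5 to 2.93 RPKM, 11.5-fold, q listed as 0, and CXCL2 from 13.6 to 1.84 RPKM, 7.38-fold, q listed as 0, by the authors' deposited table. At 30.9 RPKM with doxycycline, CXCL1 was per exon length still above CXCL2 without it (13.6 RPKM) by the authors' deposited table. CXCL16, a membrane-bound chemokine outside this stretch of the genome, was the 1 measured member of 7 not called, with a log2 fold of 0.09. The median log2 fold of the 7 was -2.96, against -0.01 over all genes. CXCL1, CXCL2 and CXCL3 are close copies, so reads may have been shared among them. The 6 genes lie between 73740506 and 74099293 on chromosome 4 with no other measured gene between them.

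Other secreted signals fell with them. CSF3, encoding granulocyte colony-stimulating factor, which makes the marrow release neutrophils, fell from 6.97 to 0.233 RPKM by the authors' deposited table, 29.9-fold, q listed as 0, the largest fall of a gene with a symbol. CSF2, encoding the granulocyte-macrophage factor, fell from 10.3 to 2.89 RPKM, 3.55-fold, q = 1.29e-11, by the authors' deposited table. IL1B, precursor of interleukin-1 beta, fell from 36.3 to 6.79 RPKM, 5.34-fold, q listed as 0, by the authors' deposited table. IL6 fell from 1.57 to 0.475 RPKM, 3.30-fold, q = 1.37e-07, by the authors' deposited table. LIF, a cytokine of the IL-6 family, and IL32 were both abundant and fell alike, LIF from 24.3 to 10.7 RPKM and IL32 from 25.1 to 10.9 RPKM by the authors' deposited table, each with a q listed as 0. Less abundant were LTB (lymphotoxin beta), IL23A and EDN1 (endothelin-1), which were 2.80-fold, 2.43-fold and 2.26-fold lower by the authors' deposited table. CSF1, the macrophage factor, was 1.59-fold lower by the authors' deposited table. In this list 10 of 13 measured genes were called lower and none higher, with a median log2 fold of -1.20. IL18, CLCF1 and IL33 were not called, at log2 folds of 0.08, 0.15 and 0.34.

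Feedback regulators of NF-kB and other genes known as its targets formed the next list. Of 22 measured members 20 were called lower and none higher, and the median log2 fold was -0.80. NFKBIA, the gene of the inhibitor IkB-alpha, fell from 109.9 to 45.2 RPKM by the authors' deposited table, 2.43-fold, q listed as 0. TNFAIP3, which encodes the deubiquitinase A20, fell from 8.10 to 2.45 RPKM, 3.31-fold, q listed as 0, by the authors' deposited table. NFKBIZ, a nuclear cofactor needed for some of these promoters, fell from 10.1 to 2.75 RPKM, 3.69-fold, q listed as 0, by the authors' deposited table. BIRC3, a ubiquitin ligase of the TNF receptor complex, TNIP1, a partner of A20, and IER3 were 2.43-fold, 1.97-fold and 1.84-fold lower by the authors' deposited table. ICAM1, an adhesion molecule for leukocytes, fell from 35.1 to 14.3 RPKM, 2.46-fold, q listed as 0, and SOD2_1, a row name not matched to the annotation that by its symbol stands for the mitochondrial superoxide dismutase, from 14 to 5.50 RPKM, 2.55-fold, q listed as 0, by the authors' deposited table. OTUD7B and RIPK2 were the 2 not called, at log2 folds of -0.19 and -0.01.

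The NF-kB subunits and their kinases split. RELB, NFKB1, NFKB2 and REL, which are themselves induced by NF-kB, were 2.19-fold, 1.53-fold, 1.53-fold and 1.55-fold lower by the authors' deposited table. IKBKE, an inducible kinase, fell from 18.7 to 7.52 RPKM by the authors' deposited table, 2.49-fold, q listed as 0. RELA, the constant subunit, and the kinase genes CHUK, IKBKB and IKBKG had log2 folds between -0.01 and 0.05 and were not called. MAP3K14, the kinase of the alternative pathway, was the 1 member called higher, at 1.19-fold by the authors' deposited table. Of 15 genes 5 were called lower, 1 higher and 9 not called, and the list's median log2 fold was 0.00.

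Genes that limit inflammatory mRNA did not move in one direction. ZC3H12A, an RNase that cleaves cytokine mRNA and is an NF-kB target, fell from 26.8 to 4.81 RPKM by the authors' deposited table, 5.58-fold, q listed as 0. ZC3H12C, its relative, was 1.36-fold lower, while ZFP36, a protein that speeds decay of AU-rich mRNA, was 1.49-fold higher by the authors' deposited table. Of 13 measured, 4 were called lower and 1 higher.

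Antigen presentation and interferon genes had medians nearer to 0 than the cytokine lists. Of 16 measured genes of MHC class I presentation 6 were called lower and none higher (median log2 fold -0.18). The called members were the immunoproteasome subunits PSMB9 and PSMB8, 2.12-fold and 1.36-fold lower, the peptide transporters TAP1 and TAP2, 1.68-fold and 1.40-fold lower, and TAPBP and CANX, 1.20-fold and 1.23-fold lower by the authors' deposited table. Of 29 interferon-stimulated genes 7 were called higher (24.1%) and 4 lower (13.8%, near the 12.5% of all genes), with a median log2 fold of 0.02. IFIT1 and IFIT2, which bind foreign RNA, were 1.84-fold and 1.57-fold higher and the RNA sensor gene DDX58 1.42-fold lower by the authors' deposited table.

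Growth factors of the TGF-beta superfamily gave some of the other large falls. BMP2, a bone morphogenetic protein, fell from 2.17 to 0.285 RPKM by the authors' deposited table, 7.59-fold, q listed as 0. INHBA, the subunit of activin A, fell from 49.7 to 15.5 RPKM, 3.22-fold, q listed as 0, and TGFB2 from 15.7 to 9.22 RPKM, 1.70-fold, q listed as 0, by the authors' deposited table. TGFBI, a matrix protein named for its response to TGF-beta, was 3.03-fold lower by the authors' deposited table. In contrast ID2 and SMAD6, known targets of BMP signals, were 1.83-fold and 1.52-fold higher by the authors' deposited table. Of 32 measured genes of these pathways 7 were called lower, 4 higher and 21 not called, and the median log2 fold was 0.01.

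Proteolysis and matrix genes moved both ways. PLAU, the urokinase plasminogen activator, is among the most abundant secreted proteases here and fell from 491 to 231 RPKM by the authors' deposited table, 2.13-fold, q listed as 0. Its inhibitor SERPINB2 was 2.42-fold lower, and S100A10, part of a plasminogen receptor, 1.49-fold higher by the authors' deposited table. Of 11 matrix metalloproteinases, related proteases and inhibitors 6 were called higher and 3 lower. MMP13, a collagenase, rose from 0.466 to 1.17 RPKM, 2.51-fold, q = 3.19e-07, and the membrane protease gene MMP14 fell from 85.7 to 64.2 RPKM, 1.33-fold, q = 2.48e-08, by the authors' deposited table. TGM2, which crosslinks matrix proteins, fell from 87.1 to 32.4 RPKM, 2.69-fold, q listed as 0, and the laminin chain gene LAMB3 was 1.80-fold lower by the authors' deposited table. The laminin receptor subunit ITGB4 was 1.41-fold higher by the authors' deposited table.

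Among vascular and EGF receptor ligands, 5 of 20 angiogenic factors were called higher and 6 lower, and 3 of 9 EGF receptor family genes each way. VEGFA, the main vascular growth factor, was 1.45-fold lower and PDGFB 1.88-fold higher by the authors' deposited table. ANGPTL4, which inhibits lipoprotein lipase, rose from 0.655 to 1.63 RPKM by the authors' deposited table, 2.49-fold, q = 1.93e-09. Of the EGF receptor ligands, HBEGF and EPGN were 1.64-fold and 2.18-fold lower and AREG and NRG2 1.37-fold and 1.83-fold higher by the authors' deposited table. IGFBP3, which sequesters insulin-like growth factors, fell from 56.9 to 21.6 RPKM, 2.63-fold, q listed as 0, and the very abundant IGFBP4 from 953 to 662 RPKM, 1.44-fold, q = 5.23e-06, by the authors' deposited table. IGFBP5 was 1.82-fold higher by the authors' deposited table.

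A mixed group made up the remaining large falls. DIO3, a deiodinase that inactivates thyroid hormone, fell from 3.60 to 0.616 RPKM by the authors' deposited table, 5.86-fold, q listed as 0. LCN2, an iron-sequestering protein of the innate defence, fell from 3.56 to 0.817 RPKM, 4.36-fold, q = 1.13e-13, by the authors' deposited table. C15orf48, a mitochondrial protein gene induced in inflammation, was 4.03-fold lower, PID1, a regulator of insulin signalling, 3.56-fold and FAM83A 4.42-fold lower by the authors' deposited table. ARL2-SNX15, a read-through transcript that shares its exons with ARL2 and SNX15, is listed as 13.8-fold lower by the authors' deposited table, and its reads cannot be separated from those of its 2 parts. With doxycycline 7 of the 20 largest falls were under 1 RPKM, among them CSF3 at 0.233 RPKM. FAM83A, C15orf48 and TNFAIP3, 3 of the 20, overlap an annotated gene on the opposite strand.

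The largest rises were smaller in fold than the largest falls. C5, the fifth component of complement, rose from 1.34 to 4.44 RPKM by the authors' deposited table, 3.31-fold, q listed as 0. LXN, latexin, an inhibitor of carboxypeptidases, rose from 6.82 to 19.7 RPKM, 2.89-fold, q listed as 0, by the authors' deposited table. AGR2, a disulfide isomerase of secretory epithelium, rose from 5.35 to 15.1 RPKM, 2.81-fold, q listed as 0, by the authors' deposited table. SPRY1, which restrains receptor tyrosine kinase signals, and HPGD, which inactivates prostaglandins, rose from 1.14 to 3.22 RPKM and from 0.977 to 2.71 RPKM by the authors' deposited table, each with a q listed as 0. PPL, periplakin of the cornified envelope, EPHA7, an ephrin receptor, and BCL6, a transcriptional repressor, were 2.82-fold, 2.35-fold and 2.16-fold higher by the authors' deposited table. SOD3, the extracellular superoxide dismutase, rose from 4.30 to 9.28 RPKM, 2.16-fold, q listed as 0, and ADIRF, a gene of fat cell differentiation, from 23.1 to 49.9 RPKM, 2.16-fold, q = 1.21e-10, by the authors' deposited table. FAM131B, ZNF467, SHISA3, SNORC, SHC4, PLPPR5, ADGRF1 and SCARA5 completed the 20, at 2.21-fold to 2.73-fold by the authors' deposited table. Without doxycycline 8 of the 20 genes had been under 1 RPKM. LXN, ANGPTL4, SNORC, SHC4, PLPPR5, SCARA5, BCL6 and ADIRF, 8 of the 20, overlap an annotated gene on the opposite strand, and these libraries kept both strands, so reads of the 2 genes cannot be told apart.

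**Figure D2:**
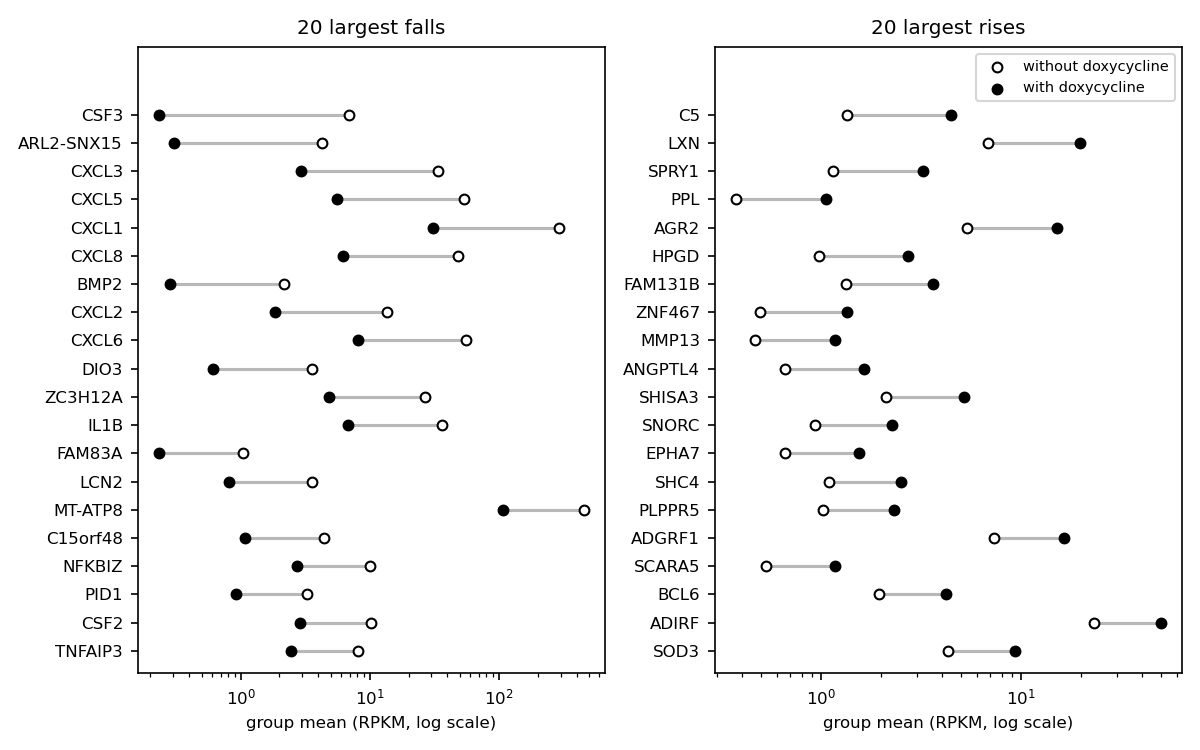
Group means in RPKM (log axis) without (open) and with (filled) doxycycline for the 20 largest falls and the 20 largest rises among called genes with a symbol, in order of fold. CXCL1 falls from 292 to 30.9 RPKM, while the largest rise, of C5, goes from 1.34 to 4.44 RPKM.

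C5 was not alone in its list. Of 8 measured complement components and regulators 5 were called higher and none lower, with a median log2 fold of 0.40. CLU, clusterin, rose from 5.56 to 10.9 RPKM, 1.95-fold, q listed as 0, by the authors' deposited table. CD55 and CD59, which shield cells from complement, were 1.38-fold and 1.35-fold higher and C1R 1.29-fold higher by the authors' deposited table.

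Genes of prostate identity and of position along the body were called higher more often than lower. Of 19 measured HOX and prostate lineage factors 9 were called higher and 3 lower, and the median log2 fold was 0.19. HOXB13, the homeobox factor of prostate epithelium, rose from 45.7 to 76.3 RPKM by the authors' deposited table, 1.67-fold, q listed as 0. FOXA1, a pioneer factor of prostate epithelium, rose from 26.4 to 42.6 RPKM, 1.61-fold, q listed as 0, by the authors' deposited table. HOXA13, HOXA10, HOXC13, HOXA9 and HOXA11 were 1.65-fold, 1.54-fold, 1.51-fold, 1.36-fold and 1.29-fold higher by the authors' deposited table. Among those called lower were EHF and HOXB9 (2.27-fold and 1.78-fold by the authors' deposited table), from 2.23 and 1.24 RPKM without doxycycline.

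Keratins and genes of cell contacts were called in both directions. KRT81, a hair keratin and one of the most abundant transcripts of these cells, fell from 2292 to 1524 RPKM by the authors' deposited table, 1.5-fold, q = 1.80e-07, and its neighbours KRT86 and KRT7 were 1.89-fold and 1.69-fold lower. KRT81 lies within the span of KRT86 on the opposite strand and the pair are close copies, so their reads may be shared. KRT8 and KRT18, the keratin pair of simple epithelium, were 1.30-fold and 1.26-fold higher by the authors' deposited table. Of 23 junction genes 5 were called higher, among them the desmosomal cadherins DSC2 and DSC3 (1.59-fold and 1.40-fold higher by the authors' deposited table), and 3 lower, among them desmoplakin, DSP, at 1.29-fold. These are 21.7% and 13.0% of the junction genes, the second close to the 12.5% of all genes. Of 14 Eph receptors and ephrins 6 were called higher and 1, EPHB2, lower. Of 10 S100 genes 5 were called higher, and S100A6, the most abundant transcript called higher, rose from 1164 to 1674 RPKM by the authors' deposited table, 1.44-fold, q = 0.00223. Of the 10 S100 genes 9 have exon lengths up to 2 kb. Over all genes the median log2 fold was 0.12 up to 1000 bases and 0.05 between 1000 and 2000. The part of length in the S100 folds was not tested.

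Immediate early and growth factor response genes gave a divided picture. Of 21 measured AP-1 and immediate early factors 8 were called lower and 2 higher (median log2 fold -0.13). JUN and JUNB were 1.62-fold and 1.47-fold lower, KLF6 1.67-fold lower and KLF4 1.40-fold higher by the authors' deposited table. Of 17 MAP kinase phosphatases and Sprouty genes 5 were called higher and 3 lower. SPRY1, SPRY4, SPRED2, DUSP6 and ETV5, known as readouts or brakes of ERK signalling, were the 5 higher, while the stress-induced phosphatases DUSP1, DUSP10 and DUSP16 were the 3 lower (1.86-fold, 1.83-fold and 1.33-fold by the authors' deposited table). YAP targets disagreed with each other: CTGF rose from 14.3 to 29.7 RPKM, 2.08-fold, q listed as 0, and FJX1 fell from 44.3 to 24.9 RPKM, 1.78-fold, q listed as 0, by the authors' deposited table. DKK1, a secreted Wnt antagonist, rose from 339 to 605 RPKM, 1.78-fold, q = 1.26e-14, and the Wnt receptor gene FZD8 fell from 211 to 113 RPKM, 1.86-fold, q listed as 0, by the authors' deposited table.

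Transcripts encoded by mitochondrial DNA fell as a group. Of 13 measured 12 were called lower and none higher, and the median log2 fold was -0.65. MT-CO1, a core subunit of cytochrome oxidase and the most abundant transcript called lower, fell from 3529.6 to 2649 RPKM by the authors' deposited table, 1.33-fold, q = 0.0386. MT-ATP8 and MT-ND6 fell furthest, from 452 to 109 RPKM (4.17-fold, q = 4.20e-07) and from 555 to 175 RPKM (3.18-fold, q = 2.60e-07) by the authors' deposited table. The other 10 called ranged from 1.33-fold for MT-CO1 to 1.65-fold for MT-ATP6 by the authors' deposited table, and MT-CO3 was not called, at a log2 fold of -0.08. The summed level of the 13 was 1.47-fold lower, 15650.4 RPKM without and 10621 RPKM with doxycycline. MT-ATP8 overlaps MT-ATP6, MT-ND6 is the 1 protein gene on the light strand, and these libraries kept both strands, so reads from the opposite strand are counted with it.

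Nuclear genes of the same respiratory complexes were not lower. Of 80 measured subunits of oxidative phosphorylation 23 were called higher and 1, NDUFA6, lower, and the median log2 fold was 0.16. COX6A1 and COX8A, small subunits of cytochrome oxidase, were 1.30-fold and 1.27-fold higher and the ATP synthase subunit gene ATP5F1E 1.40-fold higher by the authors' deposited table. Of the 80, 31 have exon lengths under 2 kb, and the median exon length of the list was 2469 bases. Over all genes the median log2 fold was 0.12 up to 1000 bases, 0.05 between 1000 and 2000, 0.01 between 2000 and 3000 and -0.02 above 8000; the part of length in the list's median was not tested. No subunit passed an absolute log2 fold of 0.5. Of 78 mitochondrial ribosomal proteins 3 were called higher and 4 lower, with a median log2 fold of 0.00.

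Hypoxia and glycolysis genes rose more often than they fell: of 40 measured 14 were called higher and 4 lower, and the median log2 fold was 0.16. NDRG1, a stress response gene induced by low oxygen, rose from 92.9 to 136 RPKM, 1.46-fold, q = 1.59e-06, and BNIP3, a mitophagy receptor, from 37.1 to 53.3 RPKM, 1.44-fold, q = 5.04e-13, by the authors' deposited table. The enolase ENO2 and the aldolase ALDOC were 1.41-fold and 1.49-fold higher and EPAS1, the gene of the hypoxia factor HIF-2-alpha, 1.44-fold lower by the authors' deposited table.

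Most measured genes of ribosome assembly fell. Of 49 measured ribosome biogenesis and nucleolar genes 35 were called lower and none higher (median log2 fold -0.28), although 3 of the 35 passed an absolute log2 fold of 0.5. RRP12 and BOP1, processing factors of ribosome precursors, were 1.54-fold and 1.52-fold lower by the authors' deposited table. FBL, the methyltransferase fibrillarin, fell from 182 to 127 RPKM and NCL, nucleolin, from 193 to 149.9 RPKM by the authors' deposited table, with q of 9.92e-06 and 0.00395. The RNA polymerase I subunit gene POLR1A was 1.32-fold lower by the authors' deposited table. Ribosomal protein genes themselves were mostly not called: 10 of 81 were higher and 4 lower, and their median log2 fold was 0.10. MYC, which drives both sets, was 1.20-fold lower and ODC1, the first enzyme of polyamine synthesis, fell from 394 to 301 RPKM, 1.31-fold, q = 0.0019, by the authors' deposited table.

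Genes of S phase entry and of mitosis were counted separately. Of 61 measured G1/S and replication genes 24 were called lower, none higher and 37 not called (median log2 fold -0.18). MCM2 and MCM7, parts of the replicative helicase, were 1.26-fold and 1.26-fold lower by the authors' deposited table. E2F1, the transcription factor of S phase genes, CDK6 and the checkpoint adaptor CLSPN were 1.26-fold, 1.39-fold and 1.45-fold lower by the authors' deposited table. Of 52 G2/M genes 11 were called higher and 1, CDC25A, lower (median log2 fold 0.06). CDK1, the kinase of mitotic entry, CCNB2 and PTTG1, securin, were 1.29-fold, 1.31-fold and 1.34-fold higher by the authors' deposited table. Of 25 genes in the list that holds the CDK inhibitors 10 were called higher, among them the INK4 genes CDKN2A, CDKN2B, CDKN2C and CDKN2D at 1.14-fold to 1.37-fold by the authors' deposited table. CDKN1A, the gene of the inhibitor p21, was 1 of 3 called lower and fell from 4.72 to 2.72 RPKM, 1.73-fold, q = 2.84e-07, by the authors' deposited table. Of 63 DNA repair genes 15 were called lower and 3 higher; BRCA1 and BRCA2 were 1.22-fold and 1.18-fold lower by the authors' deposited table, and no member passed an absolute log2 fold of 0.5 downwards.

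Protein folding genes had medians slightly below 0. Of 27 heat shock chaperones 9 were called lower and none higher (median log2 fold -0.15), with HSPA1A and HSPA1B at 1.27-fold and 1.28-fold lower by the authors' deposited table. These 2 genes are near-identical copies. Among 27 genes of the endoplasmic reticulum and unfolded protein response 8 were called lower and none higher (median log2 fold -0.15), and ERN1, the stress sensor IRE1-alpha, was 1.93-fold lower by the authors' deposited table. Among 28 integrated stress response genes 5 were called higher and 7 lower; CEBPB fell from 41.9 to 21.6 RPKM, 1.94-fold, q listed as 0, and DDIT4, an inhibitor of mTOR, from 18.3 to 9.12 RPKM, 2.01-fold, q listed as 0, by the authors' deposited table. The metallothioneins MT2A and MT1X, which bind zinc, were 1.54-fold and 1.80-fold lower by the authors' deposited table. BCL2A1, an anti-apoptotic NF-kB target, fell from 13.4 to 4.49 RPKM, 2.99-fold, q listed as 0, and BCL2L1, the gene of BCL-XL, rose from 114 to 139 RPKM, 1.22-fold, q = 0.000482, by the authors' deposited table.

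**Figure D3:**
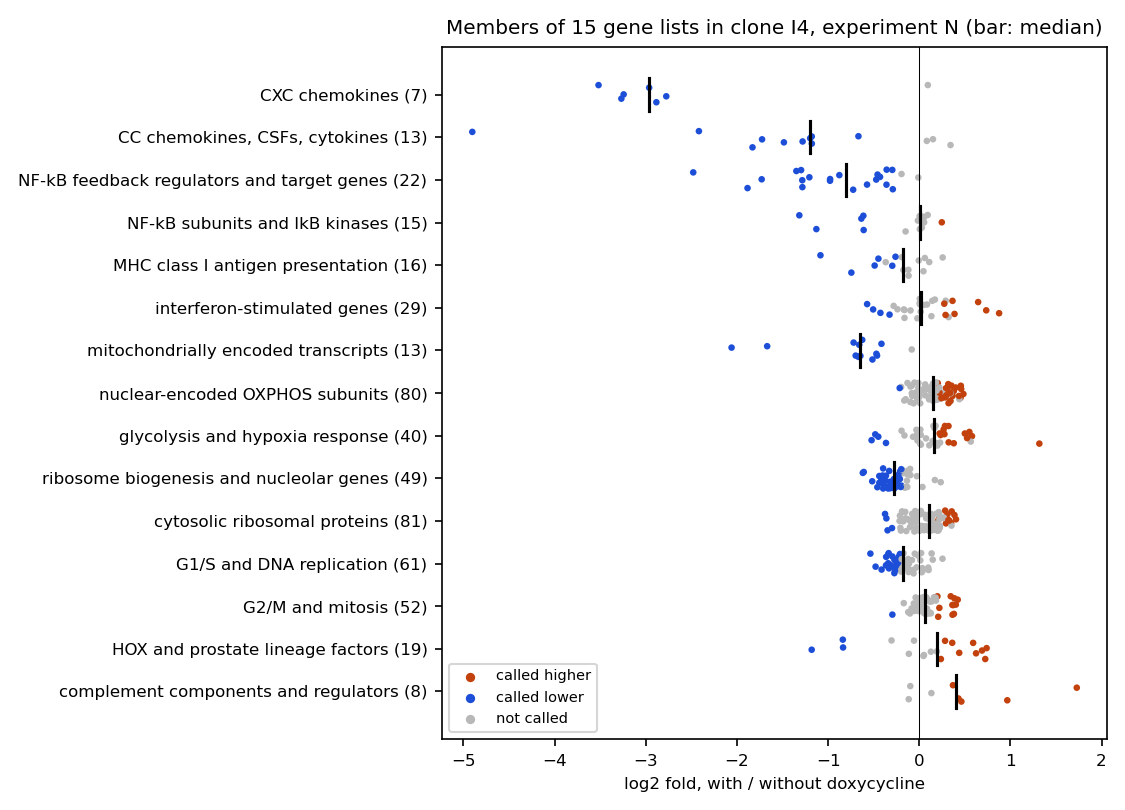
Log2 fold with against without doxycycline of every measured member of 15 gene lists (number of members in brackets); colours show members called higher, lower or not called, and bars show medians. The CXC chemokines have their median at -2.96 and the mitochondrially encoded transcripts at -0.65, while lists such as G1/S and ribosome biogenesis shift by less than 0.3 with many members called.

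The other 3 comparisons of the study share no library with this one and show how far its values recurred. Over the same genes, 2035 (18.9%) were called for the same clone in experiment B, 2167 (20.1%) for clone H6 in experiment N and 1080 (10.0%) for H6 in experiment B. Called in both with the same sign were 1262 genes in the same clone, 51.3% of the calls here and 62.0% of those there, with 4 of opposite sign. With H6 in experiment N 1271 genes were shared, 51.7% and 58.7% of the 2 lists, and 12 had opposite signs. With H6 in experiment B, which has 2 untreated libraries, 669 were shared, 27.2% and 61.9%, and 16 had opposite signs. Across genes, which are not independent replicates, the log2 folds correlated at Pearson r = 0.72, 0.75 and 0.49 and Spearman rho = 0.65, 0.71 and 0.48 in this order. Without values per library no difference between comparisons could be tested, and those below are values set side by side.

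For the CXC chemokines and the NF-kB feedback regulators and target genes, the medians here lay near those of the same clone in experiment B and further from 0 than those of H6. The CXC chemokines had a median log2 fold of -2.96 here, -3.21 for the same clone in experiment B, and -1.72 (N) and -1.88 (B) for H6. For the NF-kB regulators the medians were -0.80, -0.89, -0.35 and -0.28 in the same order. PARG itself was 1.35-fold higher here and 1.40-fold higher in I4 in experiment B by the authors' deposited table. In H6 it was 2.15-fold (N) and 1.99-fold (B) higher by the authors' deposited table. How the PARG folds relate to these medians was not tested. ICAM1 was 2.46-fold lower here and 2.73-fold lower in experiment B, against 1.04-fold lower in H6 in experiment N with q = 0.862, by the authors' deposited table. IL32 was 2.29-fold lower here and 2.18-fold lower in experiment B, while H6 in experiment N gave 1.14-fold higher (q = 0.301) by the authors' deposited table. The 12 genes called in opposite directions in I4 and H6 in experiment N included IL7R, the interleukin-7 receptor, ICOSLG, a T cell ligand, and PPIF, cyclophilin D of the mitochondrial pore. In the authors' deposited table IL7R was 1.5-fold lower here and 1.23-fold higher in H6, ICOSLG 1.76-fold lower and 1.25-fold higher, and PPIF 1.27-fold lower and 1.25-fold higher. PTGER2, a prostaglandin E2 receptor, and CDKN2B went the other way, 1.5-fold and 1.20-fold higher here and 1.18-fold and 1.25-fold lower in H6 by the authors' deposited table.

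In other lists the values lay nearer to those of the other clone in the same experiment. The mitochondrially encoded transcripts had a median log2 fold of -0.65 here and -0.55 in H6 in experiment N, whereas experiment B gave 0.07 for I4 and 0.17 for H6. MT-ATP8 was 4.17-fold lower here and 1.46-fold higher in I4 in experiment B by the authors' deposited table, both called. MT-ND6 stood at 555 RPKM here and at 94.6 RPKM in I4 in experiment B, the higher group mean in each case by the authors' deposited table. The nuclear-encoded subunits had medians of 0.16 and 0.13 in experiment N and 0.01 and -0.01 in experiment B, and S100 genes of 0.35 and 0.34 against -0.03 and 0.04. Passage, sequencing centre and strand-specific library preparation all differed between the experiments and cannot be told apart. The ribosome biogenesis list (-0.28, -0.24, -0.20 and -0.16 for I4 in N and B and H6 in N and B) and the G1/S list (-0.18, -0.16, -0.14 and -0.14) had medians of one sign in all 4.

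**Figure D4:**
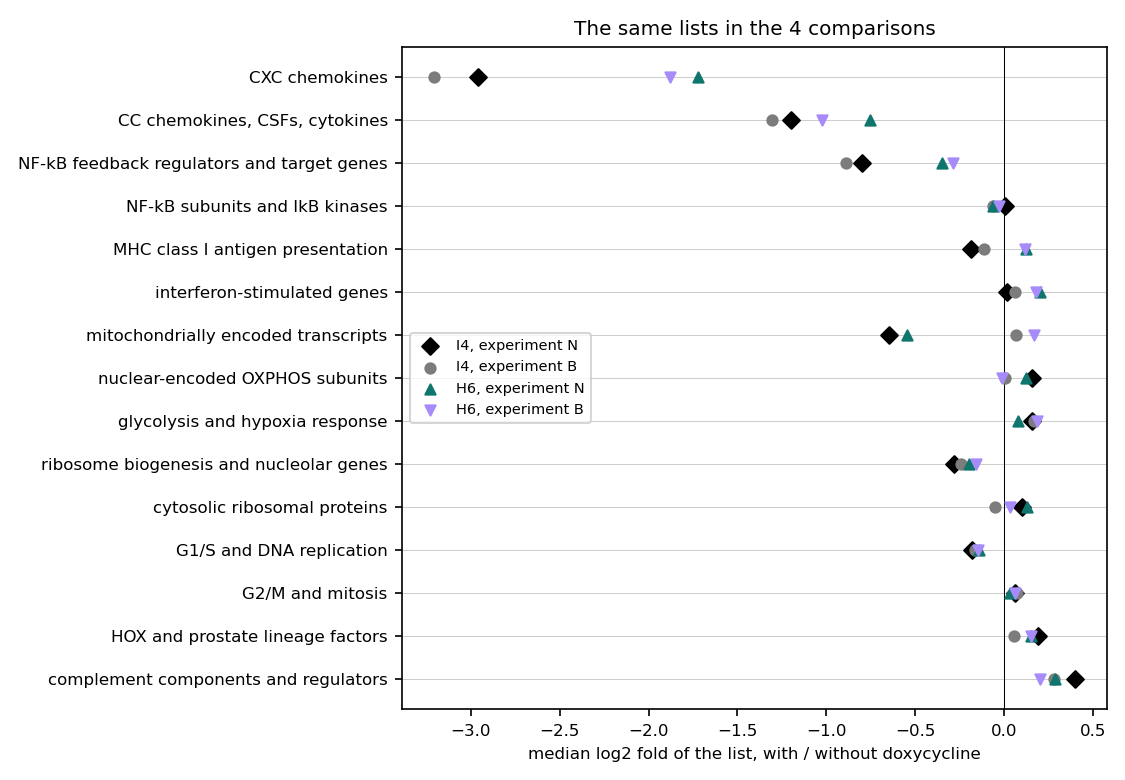
Median log2 fold of the same 15 lists in the 4 comparisons (black diamonds, clone I4 in experiment N). The CXC chemokine medians are further from 0 in I4 (-2.96 and -3.21) than in H6 (-1.72 and -1.88), and the mitochondrial transcripts are below 0 in experiment N (-0.65 and -0.55) and above it in experiment B (0.07 and 0.17).

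**Figure D5:**
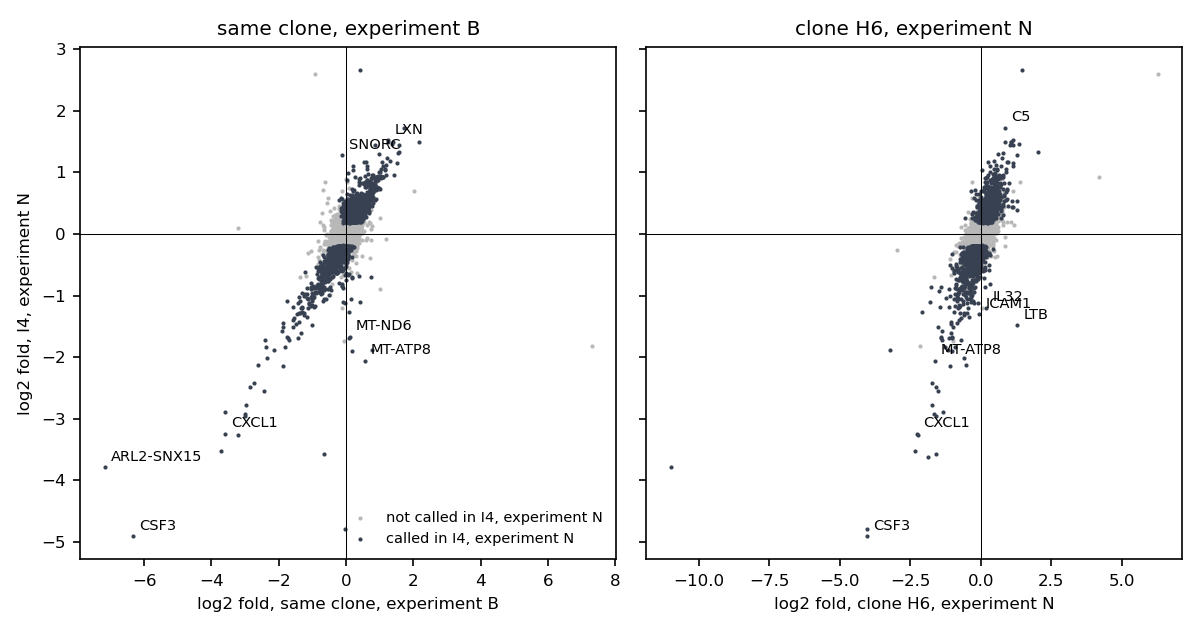
Log2 fold of each gene in clone I4, experiment N (vertical axis) against the same clone in experiment B and clone H6 in experiment N (horizontal axes); dark points are genes called in I4, experiment N. CSF3 and CXCL1 fall in each, MT-ATP8 falls here and is higher in experiment B, and LTB, IL32 and ICAM1 lie near or above 0 in H6. The higher group mean of LTB in H6 is only 0.490 RPKM.

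Genes called here and in no other comparison numbered 667, 261 higher and 406 lower, with a median absolute log2 fold of 0.27. Those called in all 4, in either direction, numbered 529 with a median of 0.53, so the calls that did not recur were mostly small. Among the 667 were LTB and PSMB9. By the authors' deposited table LTB was 2.80-fold lower here, and its values of 2.01-fold lower in experiment B and 2.43-fold higher in H6 in experiment N were not called. Its higher group mean in these comparisons was 0.684 and 0.490 RPKM, under the limit of 1 RPKM used here. PSMB9 was 2.12-fold lower here, and its values of 1.60-fold and 1.22-fold lower there were not called, by the authors' deposited table. C5 was 3.31-fold higher here, 3.29-fold higher in experiment B and 1.81-fold higher in H6 of experiment N by the authors' deposited table.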

How the data were processed

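Poly(A)-selected RNA of 6 wells of clone I4 was sequenced after library preparation with a kit that keeps both strands, per the labels' protocols; per the submitters' processing notes the build was hg38. For the aligner, counting program, annotation and test, nothing is given in the sources used here. The authors' deposited table gives, for this comparison, the higher group mean, a signed fold and a q-value. The mean is on the RPKM scale made by the authors, a unit read here from the values, since level times exon length falls on fixed steps in genes of 1 read. The fold is the authors' own signed ratio, and their deposited q-value is an adjusted p-value, by a method not given; 177 called genes have a q listed as 0. For very low genes the fold is not the plain ratio of means, so levels computed from it are approximate.

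Here folds were put on the log2 scale, genes were called at q under 0.05 with a level of at least 1 RPKM, and 58 gene lists were counted. Python 3.11.15, pandas 2.3.3 and numpy 2.4.6 were used, and the counting was tested on simulated data. Names matched GENCODE release 29 for 21346 of 21463 rows; 27 rows have a date in place of a symbol and are counted, not named, and some genes are not reported here. For depth, 480 of 644 very low genes (74.5%) lay on a step. Promoter sequences are RefSeq's on GRCh38.p14, matched for 32 of the 40 genes with the largest changes. Planned models of counts, leave-one-out and the replicate block need values per library and were not run.

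Members and lists were chosen with earlier results of these data known. The rule names PARG, the 20 largest rises and falls with a symbol, the 12 called genes of highest level each way, up to 6 called members per list by fold and 3 by level, 8 genes each way by difference in log2 fold from I4 in B and H6 in N, and the 8 largest called in opposite directions in I4 and H6 in N. Named outside this rule after their values were seen were AC138811.2, AL445685.3, BRCA1, BRCA2, CDC25A, CDKN2B, CDKN2D, CHUK, CLCF1, CSF1, CXCL16, DAW1, DNER, DUSP6, E2F1, EDN1, G0S2, HIST2H2AA3, HOXA9, HOXA10, HOXA11, HOXC13, IKBKB, IKBKG, IL18, IL33, MCM2, MT-CO3, MYC, NDUFA6, OTUD7B, PLXNA2, POLR1A, PRAC1, PRAC2, RELA, RIPK2 and SLC7A1.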

Additional observations from a re-analysis of the deposited data

How the results depend on the processing

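No paired analysis was possible because the deposited table holds no value per library. For the same reason no replicate could be left out in turn. Of 85 alternative values, 60 stayed within 1.5 times of the value given above. The 60 include every value from folds centred on the median. Centring changed the sign of none of the calls and could not have done so. The median log2 fold was -0.01 and the smallest absolute log2 fold called was 0.18, so the centred values do not bear on how stable the counts are. Counting from a q-value under 0.01 left 734 genes called higher, and in the lists 10 oxidative phosphorylation genes, 6 genes of the list holding the CDK inhibitors higher, 5 endoplasmic reticulum genes, 8 DNA repair genes and 2 tRNA synthetases lower. A minimum of 5 RPKM left 5 cytokine genes called lower. Requiring an absolute log2 fold of 0.5 left 541 genes, 243 higher and 298 lower, and requiring 1 left 110 genes, 30 higher and 80 lower. At 0.5 the counts were 13 NF-kB regulators, 3 ribosome biogenesis genes, 1 G1/S gene and 2 endoplasmic reticulum genes called lower, and 5 glycolysis and 5 HOX and lineage genes called higher. The count at 0.5 was 0 for oxidative phosphorylation, G2/M and CDK inhibitor list genes called higher and for heat shock, DNA repair and tRNA synthetase genes called lower. The fold limits lower these counts by construction, since the median called change was small. The CXC chemokine count of 6 held under all 4 alternatives run on it, none of which could lower it. All 6 genes had a q listed as 0, a level of at least 13.6 RPKM and a log2 fold of -2.77 or lower. With at least 34.9 M reads per library, a gene at 1 RPKM rested on few reads only where its exons are short. At the level of the higher group 5% of the genes had under 231 reads per library.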

Other observations

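Transporters and a few metabolic lists were not described above. Of 150 measured solute carriers 33 were called lower and 16 higher, against 12.5% and 10.3% of all genes. The amino acid transporters SLC7A5, SLC7A1 and SLC1A5 were 1.42-fold, 1.34-fold and 1.25-fold lower by the authors' deposited table. SLC7A11, the cystine transporter, and SLC4A11 were 1.36-fold and 1.75-fold higher by the authors' deposited table. Of 332 zinc finger genes with ZNF names 25 were called higher and 16 lower, shares of 7.53% and 4.82% and thus under those of all genes. Of 27 genes of cholesterol synthesis 5 were called lower and 2 higher, with SQLE 1.36-fold lower and TM7SF2 1.45-fold higher by the authors' deposited table. Of 20 aminoacyl-tRNA synthetases 7 were called lower and none higher, at most 1.30-fold for FARSA by the authors' deposited table.

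Called genes with an absolute log2 fold of at least 0.5 formed 6 runs of 3 or more neighbouring measured genes that moved the same way. Lower runs were the CXC chemokines and the mitochondrial genes from MT-ND4 to MT-CYB, KRT7, KRT86 and KRT81 on chromosome 12, PLXNA2, LAMB3 and G0S2 on chromosome 1, and DAW1, PID1 and DNER on chromosome 2. The higher run was PRAC1, PRAC2 and HOXB13 on chromosome 17, where PRAC1 was 1.76-fold, PRAC2 1.52-fold and HOXB13 1.67-fold higher by the authors' deposited table. How many such runs genes in random order would give was not tested.

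Some of the largest folds in the authors' deposited table belong to clone-named, read-through or duplicated loci. AC138811.2, a clone-named gene on chromosome 16, is listed as falling from 10.4 to 0.377 RPKM, 27.6-fold, q = 4.48e-11, by the authors' deposited table, with log2 folds of -4.02 in H6 in experiment N and -0.02 in I4 in experiment B. AL445685.3, the largest rise of all, is listed as rising from 0.601 to 3.80 RPKM, 6.32-fold, q = 0.000458, by the authors' deposited table. HIST2H2AA3, a histone gene with a near-identical copy, had a log2 fold of 2.61 and was not called (q = 0.0501 by the authors' deposited table). The copy, HIST2H2AA4, fell from 30.1 to 14 RPKM, 2.15-fold, q = 3.09e-05, by the authors' deposited table, and whether reads were exchanged between the 2 rows was not tested. The read-through transcript CHURC1-FNTB was 2.15-fold lower here and had a fold of 1.33 in the other direction, not called, in I4 in experiment B by the authors' deposited table. The part of the counting method in these values was not tested.

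Between 1 and 3 RPKM 8.09% of genes were called higher and 7.65% lower, against 11.3% and 17.2% between 30 and 100 RPKM and 12.9% and 15.5% at 100 RPKM or more. Among called genes the median absolute log2 fold was 0.50 in the lowest class and between 0.30 and 0.36 in the others. By GC content of the longest transcript, the median log2 fold ran from 0.01 under 40% to -0.04 above 60% here, and from 0.09 to -0.06 for the same clone in experiment B.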
